A study of Mus musculus with 5 samples.

Results

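Mitosis and spindle checkpoint genes encode the machinery that condenses, aligns and separates chromosomes. The 43 genes described here were chosen by symbol from a fixed list, not by a threshold on these arrays. The list was made with earlier results of these data known, so these genes were not tested as a set. Of these, 41 had a probe set paired with their symbol, out of 19505 genes in all, and Sgol1 was matched under its current symbol Sgo1. Ccnb1 and Foxm1 were not analysed here. Each of the 41 genes had 1 probe set.

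The genes were read on 5 single-colour whole-transcript arrays of macrophages sorted from C57BL/6 mice that carried B16-F10 melanoma, a mouse tumour cell line injected under the skin. There were 3 arrays from mice without MyD88 (MyD88-ko) and 2 from wild-type (WT) mice. MyD88 is the adaptor protein of the IL-1 receptor family and of most Toll-like receptors, and the series asks how this axis acts on tumour-associated macrophages. The mice, female or male, were 6 to 12 weeks old, and cells were sorted at day 15 as CD45+, F4/80+, CD11b+ and CD3-, B220- and NK1.1-. All groups carried the same tumour, and no group without a tumour was analysed here. The labels call the cells tumour-associated macrophages, while the growth protocol names spleen cells as the sorted material. Separate animals are not stated for the arrays, so the p-values reflect array-to-array spread that may be technical in part or whole.

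The targeted gene Myd88 read 7.73, 7.01 and 7.58 on the MyD88-ko arrays and 8.46 and 8.40 on the WT arrays, lower on each array labelled MyD88-ko. The labels do not say which exons were deleted, so the probes may lie outside the deletion. Array medians over all genes lay between 4.52 and 4.57, and the arrays correlated at Pearson r between 0.969 and 0.992 across genes.

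A cell divides when cyclin A and cyclin B activate the kinase CDK1, and the Polo and Aurora kinases then build the spindle. The spindle checkpoint holds the anaphase-promoting complex inactive until every kinetochore is attached to microtubules, and cytokinesis follows once the chromosomes have parted. Most of these genes are transcribed mainly in G2 and M phase, so in bulk RNA their level is commonly used as a sign of dividing cells. Macrophages in tumours and tissues can divide locally, and melanoma cells divide rapidly. In bulk RNA a larger share of dividing cells and more mitotic RNA per dividing cell cannot be told apart.

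Nearly all of the genes had higher means in MyD88-ko than in WT macrophages, by moderate amounts that no single gene carried past the test over all genes. Differences are MyD88-ko minus WT on the log2 scale throughout. They were positive for 40 of 41 genes, against 53.1% of all 19505 genes, with a median of 0.61 (1.53-fold) against 0.02 over all genes. The middle 50% of the 41 differences lay between 0.41 and 0.70. At least 1.5-fold higher means were seen for 22 of 41 genes, against 2.44% of all genes. The genes with the largest differences were Plk1, a kinase that drives entry into and progress through mitosis (1.16), Ccna2, encoding cyclin A2 (1.01), and Kif2c, a microtubule-depolymerising kinesin of the centromere (0.95). Hmmr, a spindle assembly protein, had the only negative difference (-0.04), which turned positive under 7 of 18 alternative settings, among them equal medians of the negative controls.

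None of the 41 genes passed (limma, Benjamini-Hochberg adjusted p over all genes under 0.05), where 0.00513% of all genes were called higher and 0.185% called lower. The lowest adjusted p among them was 0.111, for Mtbp. At an unadjusted limma p under 0.05 there were 25 of 41 genes higher and 0 lower, where 6.16% of all genes were higher and 6.39% lower. The 3 MyD88-ko arrays all lay above both WT arrays for 29 genes, where 14.8% of all genes did so, and the reverse was seen for 0 genes, against 12.9% of all genes. The count at an unadjusted p under 0.05 fell to 8 without WT replicate 1, to 13 without MyD88-ko replicate 2 and to 16 without MyD88-ko replicate 1. The median difference was 0.42 without WT replicate 1 and 0.71 without WT replicate 2. With the medians of the negative controls set equal, 6 of the 41 genes passed (Bub1, Bub1b, Aurka, Mad2l1, Sgo1 and Mtbp, limma adjusted p between 0.029 and 0.049). Calls also rose over all genes, where 263 passed, 141 of them higher, against 37, 1 of them higher, before that scaling. That scaling shifts all genes of an array by the same amount, so it raised every difference alike. It moved the median of all genes to 0.21. The median of the 41 genes stood 0.595 above it, a gap that such a shift cannot change.

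**Figure D1:**
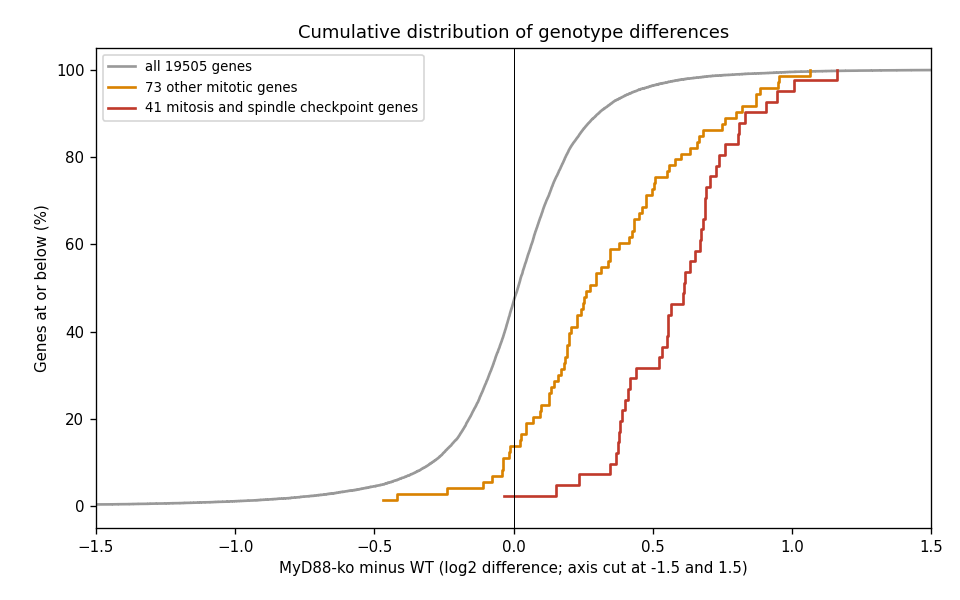
Share of genes (vertical axis, percent) with a MyD88-ko minus WT difference at or below the value on the horizontal axis (log2), for all 19505 genes, for 73 other mitotic genes and for the 41 mitosis and spindle checkpoint genes. The curve of the 41 genes crosses 50% at 0.61, that of the other mitotic genes at 0.27 and that of all genes at 0.02.

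Background was read from 5222 negative control rows of the same table. The background limit, the 95th percentile of these controls on an array, was 6.55, 6.59 and 6.74 on the MyD88-ko arrays and 6.91 and 6.96 on the WT arrays. Of the 41 genes, 5 lay above it on all 5 arrays (Mki67, Ccnb2, Stmn1, Birc5 and Cenpa), 12 on some arrays and 24 on none. Above the limit were 13, 17 and 11 genes on MyD88-ko replicates 1, 2 and 3, and 5 and 8 genes on WT replicates 1 and 2. The limit was lower on the MyD88-ko arrays, so such counts also reflect the limit. Over all 19505 genes they were 4334, 4194 and 3968 on the MyD88-ko arrays and 3420 and 3480 on the WT arrays. Of all 19505 genes, 14803 lay above it on no array, so most genes of the table share this low range. The median difference was 0.55 for the 5 genes above the limit on all arrays, 0.77 for the 12 above it on some and 0.56 for the 24 above it on none. The negative controls themselves moved the other way, with a median difference of -0.14. A fold is given below only where at least 1 group was above the limit, and as "at least" where the other group was under it on all arrays.

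**Figure D2:**
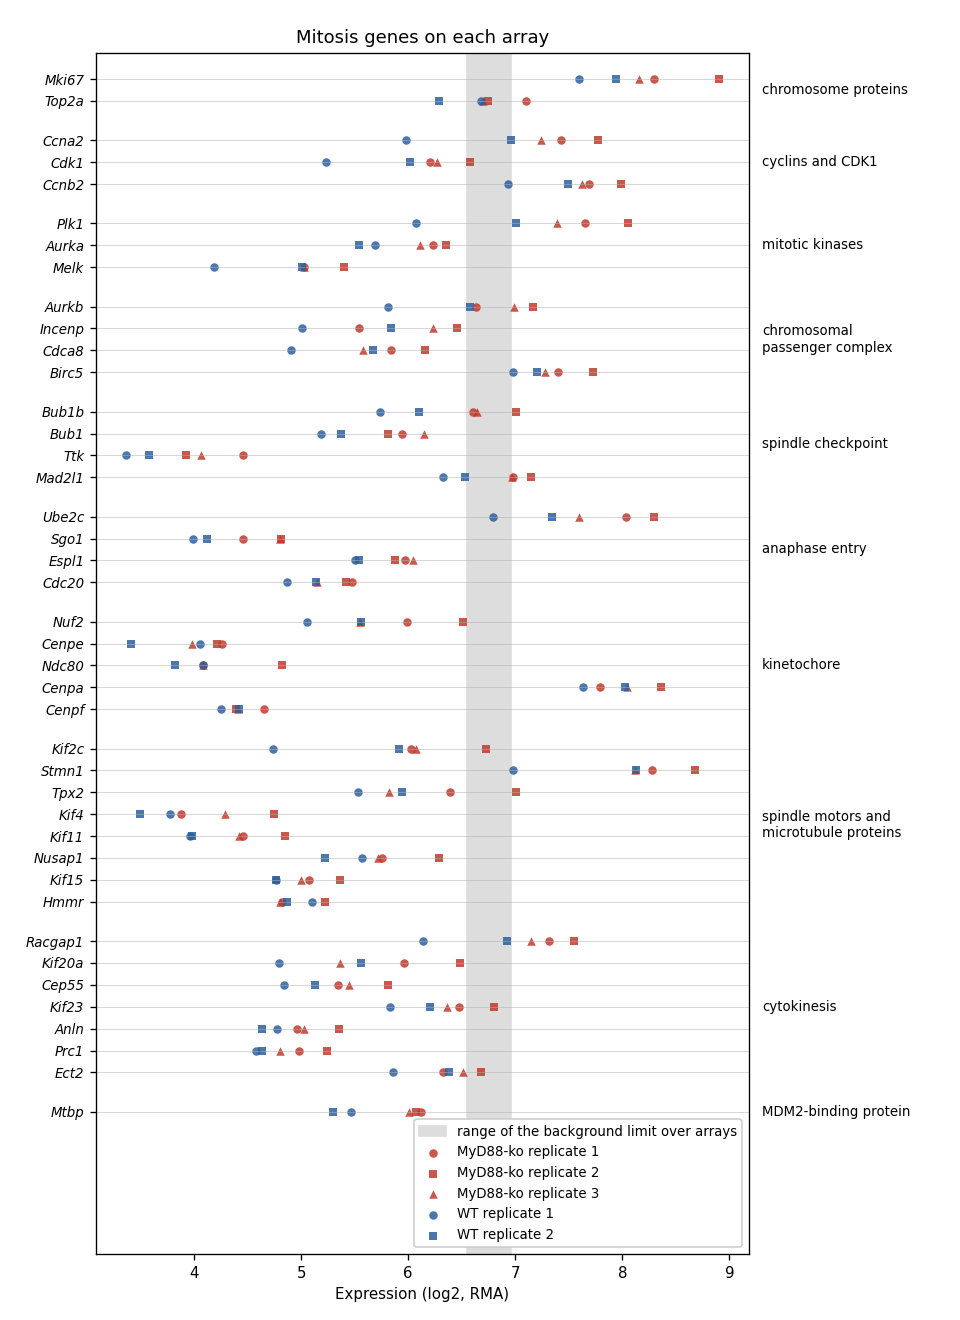
Expression of each of the 41 genes on each array (horizontal axis, log2 RMA value), grouped by role, with MyD88-ko arrays in red, WT arrays in blue and the marker shape giving the replicate number. The grey band spans the background limits of the 5 arrays, from 6.55 to 6.96, and 24 genes lie under the limit on every array. Red symbols lie to the right of both blue symbols for 29 genes.

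Promoter sequence was read because genes of this kind are known to share short elements near their start. The CHR, searched here as the core TTTGAA or TTTAAA, is bound by the DREAM and MMB complexes, which repress and activate G2 and M phase genes. The CCAAT box is bound by NF-Y. RefSeq promoters (GRCm38.p6) were matched for 34 of the 41 genes, at the first start listed for each, and the 250 bases before the start were searched on both strands. TTTGAA was found in 11 of 34 promoters, against 14.2% of the 15691 promoters of genes on the array that were matched. TTTAAA was found in 5, against 11.1%, and CCAAT in 23, against 36.0%. At least 2 CCAAT places were found in 15 of 34 promoters, against 11.8%. Both a CHR core and a CCAAT were found in 12 of 34, against 8.57%. These are letter matches, not sites shown to be bound. For Kif2c and Sgo1 the listed start lay over 1000 bases inside the annotated gene (3852 and 2016 bases). For Ect2 and Aurka it lay 375 and 316 bases inside. The windows of all these genes, counted here, are therefore internal. The 200 bases before the start are shown for the 6 genes with the largest differences among those above the background limit on at least 1 array and with a matched promoter, except Kif2c, 5′ to 3′ on the strand of the gene, with matches in capitals on either strand (CCAAT reads ATTGG and TTTGAA reads TTCAAA on the opposite strand).
Plk1: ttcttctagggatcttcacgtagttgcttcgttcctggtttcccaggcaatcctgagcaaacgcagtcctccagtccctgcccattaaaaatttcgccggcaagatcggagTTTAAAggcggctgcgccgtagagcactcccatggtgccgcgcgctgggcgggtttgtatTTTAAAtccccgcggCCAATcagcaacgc
Ube2c: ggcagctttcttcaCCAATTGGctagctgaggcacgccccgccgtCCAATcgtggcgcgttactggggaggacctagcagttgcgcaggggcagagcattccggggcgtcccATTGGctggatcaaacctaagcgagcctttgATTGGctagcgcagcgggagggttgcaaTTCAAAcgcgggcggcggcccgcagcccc
Bub1b: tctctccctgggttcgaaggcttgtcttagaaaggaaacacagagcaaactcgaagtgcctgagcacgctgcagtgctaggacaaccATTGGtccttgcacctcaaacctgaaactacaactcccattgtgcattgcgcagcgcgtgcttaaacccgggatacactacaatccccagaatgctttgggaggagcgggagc
Racgap1: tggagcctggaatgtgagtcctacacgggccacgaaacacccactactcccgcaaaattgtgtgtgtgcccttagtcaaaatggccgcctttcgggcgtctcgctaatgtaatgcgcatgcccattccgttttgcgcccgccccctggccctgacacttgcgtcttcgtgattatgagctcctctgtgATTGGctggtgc
Mki67: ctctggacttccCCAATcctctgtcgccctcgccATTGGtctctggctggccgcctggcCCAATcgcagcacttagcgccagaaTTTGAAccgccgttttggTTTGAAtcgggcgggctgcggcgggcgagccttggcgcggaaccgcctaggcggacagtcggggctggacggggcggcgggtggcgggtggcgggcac
The Plk1 stretch lies at chr7:122159235-122159434, plus strand. The Ube2c stretch lies at chr2:164769729-164769928, plus strand. The Bub1b stretch lies at chr2:118598011-118598210, plus strand. The Racgap1 stretch lies at chr15:99651657-99651856, minus strand. The Mki67 stretch lies at chr7:135716380-135716579, minus strand. In Ube2c the matches were several CCAAT boxes and 1 CHR core near the start, in Mki67 a run of CCAAT boxes ahead of a pair of TTTGAA cores, and in Plk1 TTTAAA cores followed by a CCAAT. Bub1b and Racgap1 showed a CCAAT without TTTGAA or TTTAAA, and other spellings of the CHR were not searched. The median difference was 0.50 for the 12 genes with both elements, 0.61 for 11 with CCAAT alone, 0.38 for 3 with a CHR core alone and 0.55 for 8 with neither, and the ranges of these groups overlapped.

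For the cyclins and CDK1, every MyD88-ko value exceeded both WT values. Over all genes this order held for 14.8%, the share to set beside the counts of genes without overlap in each role below. Ccna2, whose product drives S phase and entry into mitosis, read 7.43, 7.77 and 7.24 on MyD88-ko replicates 1 to 3 and 5.98 and 6.96 on WT replicates 1 and 2. The groups did not overlap, and the WT arrays were 0.98 apart, nearly the difference between the group means. The difference was 1.01 (95% interval 0.26 to 1.75, 2.01-fold, limma adjusted p = 0.272), with 1 WT array above the background limit. Without WT replicate 1 the difference of Ccna2 was 0.52. Ccnb2, encoding cyclin B2, read 7.69, 7.99 and 7.62 against 6.93 and 7.50. It was above the limit on all arrays, and its difference was 0.55 (0.07 to 1.04, 1.47-fold, adjusted p = 0.340). Cdk1, the kinase they activate, averaged 6.35 ± 0.20 (SD, n = 3) against 5.62 ± 0.56 (SD, n = 2) in WT, under the limit on all arrays.

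Mki67, the proliferation antigen that coats mitotic chromosomes, was well above background. It read 8.29, 8.90 and 8.16 in MyD88-ko and 7.59 and 7.94 in WT, above at least 97.3% of the negative controls on every array. No MyD88-ko array fell to the WT range, and the difference was 0.69 (0.09 to 1.28, 1.61-fold, limma adjusted p = 0.330). Top2a, the topoisomerase that untangles sister chromatids, had a smaller difference of 0.37, and it was above the limit on 2 MyD88-ko arrays and on neither WT array.

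All 3 mitotic kinases had groups that did not overlap. Plk1 read 7.65, 8.06 and 7.39 in MyD88-ko and 6.07 and 7.004 in WT. WT replicate 2 stood 0.39 below the lowest MyD88-ko array and WT replicate 1 far lower. Its difference of 1.16 (0.40 to 1.92, 2.24-fold, limma adjusted p = 0.231) was the largest of the 41, and it was 0.70 without WT replicate 1, which lay under the background limit, so this fold was in part against background. Aurka, which matures centrosomes and the spindle poles, read 6.23, 6.35 and 6.11 against 5.69 and 5.54, under the limit on all arrays. Its arrays were tight within each group, and its difference of 0.61 (0.32 to 0.91) had an adjusted p of 0.148 (limma). Melk, a kinase of dividing and progenitor cells, had a difference of 0.55, and 2 of its MyD88-ko arrays lay within 0.02 of WT replicate 2. Melk too was under the limit on all arrays.

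All 4 spindle checkpoint genes had groups that did not overlap, with every MyD88-ko value the higher and differences between 0.61 and 0.83. Mad2l1, whose product binds and holds CDC20, read 6.98, 7.15 and 6.97 in MyD88-ko and 6.32 and 6.53 in WT. It was above the limit on all MyD88-ko arrays and on neither WT array, which gives at least a 1.07-fold higher level, and the difference was 0.61 (0.32 to 0.90, limma adjusted p = 0.151). Bub1b, encoding the checkpoint protein BUBR1, read 6.60, 7.005 and 6.65 against 5.74 and 6.11. It had the largest difference of the 4, 0.83 (0.40 to 1.26, adjusted p = 0.172). Bub1b was above the limit on 2 MyD88-ko arrays and on neither WT array.
Bub1, the kinase that recruits checkpoint proteins to kinetochores, read 5.95, 5.81 and 6.15 against 5.19 and 5.37, with a difference of 0.69 (adjusted p = 0.153). Ttk, the kinase that starts the checkpoint signal, read 4.45, 3.93 and 4.06 against 3.36 and 3.58, with a difference of 0.68 (adjusted p = 0.229). Neither gene reached the limit on any array, and on WT replicate 1 Ttk was above only 43.2% of the negative controls.

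All 4 genes that control the release of sister chromatids had groups that did not overlap. Ube2c, the ubiquitin-conjugating enzyme of the anaphase-promoting complex, read 8.03, 8.30 and 7.59 in MyD88-ko and 6.79 and 7.35 in WT. The groups did not overlap, with WT replicate 2 the closer of the WT arrays, and the difference was 0.91 (0.29 to 1.52, 1.88-fold, limma adjusted p = 0.243). WT replicate 1 of Ube2c lay under the limit, so this fold too was in part against background. Espl1, encoding separase, which cuts cohesin, read 5.97, 5.88 and 6.04 against 5.51 and 5.54, a difference of 0.44 (adjusted p = 0.196). Sgo1, encoding shugoshin, which protects cohesin at the centromere, read 4.46, 4.81 and 4.80 against 3.99 and 4.12, a difference of 0.63 (adjusted p = 0.189). Neither Espl1 nor Sgo1 reached the limit on any array. Cdc20, the activator of the anaphase-promoting complex, had a difference of 0.35, and its lowest MyD88-ko array exceeded its highest WT array by 0.01. Cdc20 was under the limit on all arrays.

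The chromosomal passenger complex corrects faulty attachments of chromosomes to the spindle. Its kinase Aurkb had a difference of 0.74 with groups that did not overlap and with all MyD88-ko arrays and neither WT array above the limit. On MyD88-ko replicate 1 Aurkb read 6.64, above the limit of that array but under the limits of the WT arrays. Birc5, encoding survivin, was above the limit on all arrays and read 7.40, 7.73 and 7.28 in MyD88-ko against 6.98 and 7.20 in WT. The difference for Birc5 was 0.38 (-0.02 to 0.78, 1.30-fold, limma adjusted p = 0.423), and its groups did not overlap. The scaffold Incenp (0.65) and borealin, encoded by Cdca8 (0.57), were under the limit on all arrays, and their groups overlapped.

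For none of the 5 kinetochore genes did the groups stand apart. Cenpa, the histone variant that marks centromeres, was above the limit on all arrays and read 7.79, 8.36 and 8.04 in MyD88-ko against 7.63 and 8.03 in WT. The arrays of Cenpa were interleaved, and the difference was 0.23 (-0.26 to 0.73, 1.18-fold, limma adjusted p = 0.673). The microtubule-binding subunits Nuf2 (0.70) and Ndc80 (0.37), the motor Cenpe (0.42) and Cenpf (0.15) were under the limit on all arrays. Whether this role differs from the others was not tested.

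Among the 8 spindle motors and microtubule proteins, 7 had positive differences and 5 had groups that did not overlap. Kif11, the motor that pushes spindle poles apart, read 4.46, 4.85 and 4.42 in MyD88-ko and 3.96 and 3.98 in WT, under the limit on all arrays. Its WT arrays were nearly equal, and the difference was 0.61 (0.23 to 0.99, limma adjusted p = 0.219). Stmn1, a microtubule-destabilising protein, was above the limit on all arrays and read 8.28, 8.68 and 8.11 against 6.98 and 8.12. MyD88-ko replicate 3 lay just under WT replicate 2, so the groups overlapped, and WT replicate 1 stood far below. For Stmn1 the difference of 0.81 (-0.04 to 1.65, 1.75-fold, adjusted p = 0.418) was 0.23 without WT replicate 1.
Kif2c (0.95) and Tpx2, which nucleates spindle microtubules (0.67), were above the limit on 1 MyD88-ko array each. Kif4, a chromosome-bound motor (0.67), Nusap1, a spindle-bundling protein (0.52), and Kif15, a spindle motor (0.38), were under it on all arrays with groups that did not overlap. Hmmr read 4.82, 5.22 and 4.80 against 5.10 and 4.87. Its arrays were mixed, and its difference was -0.04 (-0.44 to 0.37, adjusted p = 0.951).

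All 7 cytokinesis genes had positive differences, from 0.39 to 0.81, and 5 had groups that did not overlap. Racgap1, the subunit of centralspindlin that activates the cleavage machinery, had the largest (0.81, limma adjusted p = 0.276). It was above the limit on all MyD88-ko arrays and on neither WT array, which gives at least a 1.32-fold higher level. Its partner motor Kif23 had a difference of 0.53, the midbody motor Kif20a 0.76, the abscission protein Cep55 0.55, the furrow scaffold Anln 0.41, the spindle midzone bundler Prc1 0.40 and the exchange factor Ect2 0.39. The groups of Kif20a and Ect2 overlapped. Kif23 and Ect2 were above the limit on 1 MyD88-ko array each, and Kif20a, Cep55, Anln and Prc1 on no array. Mtbp, which binds MDM2 and takes part in firing replication origins, had the lowest p of the 41 genes. It read 6.12, 6.07 and 6.01 against 5.46 and 5.30, under the limit on all arrays, with a difference of 0.69 (0.42 to 0.95, adjusted p = 0.111).

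**Figure D3:**
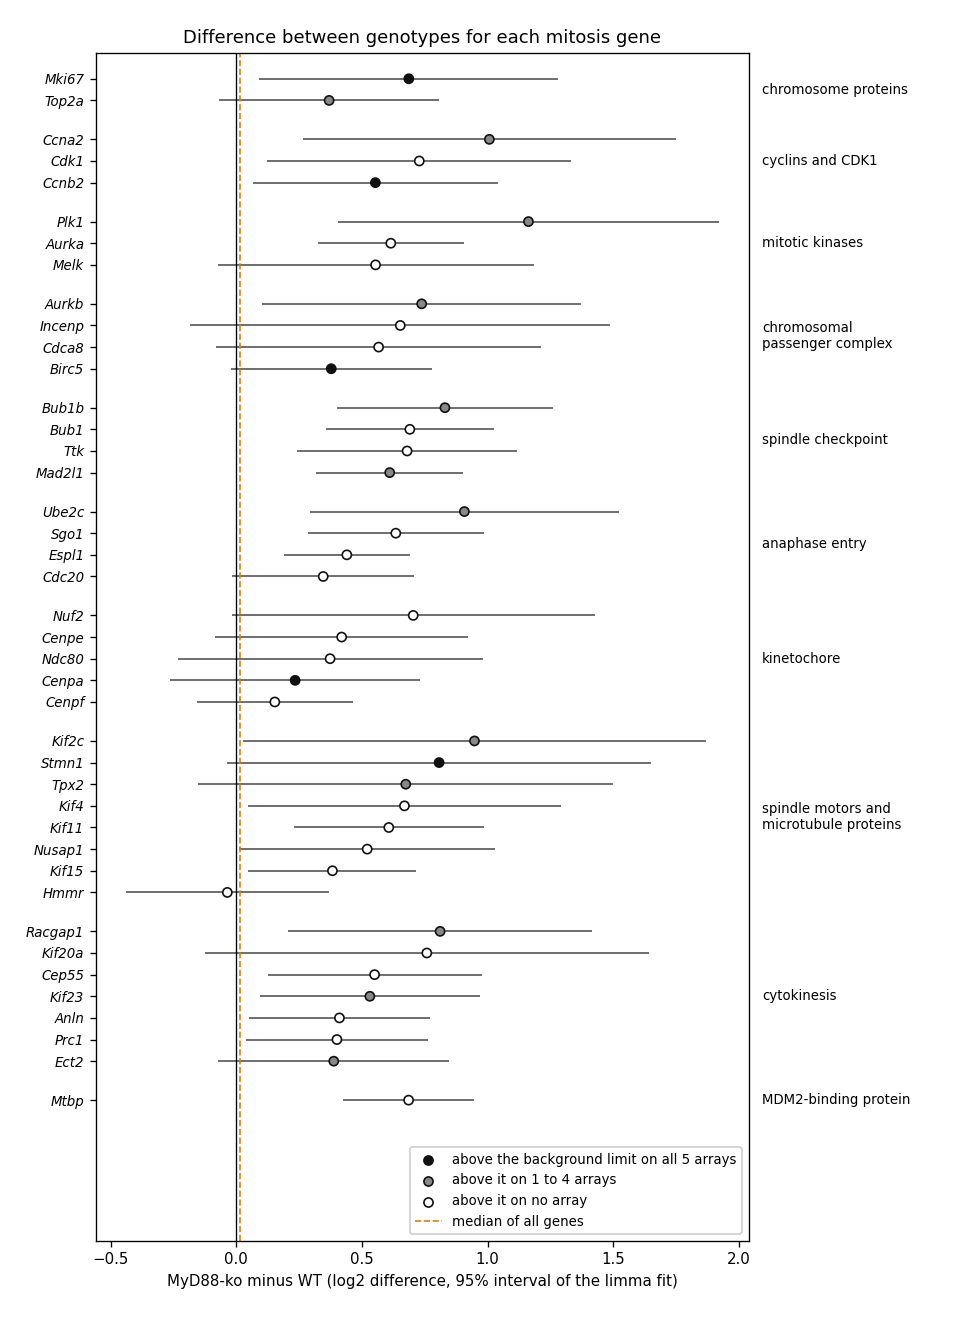
MyD88-ko minus WT difference (horizontal axis, log2) of each of the 41 genes with the 95% interval of the limma fit, grouped by role. Black points are above the background limit on all 5 arrays, grey points on some and white points on none, and the dashed line is the median of all genes at 0.02. The intervals of 25 genes lie above 0, and the point of Hmmr is the only one below 0, a sign that turned under 7 of 18 alternative settings.

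Arrays of one genotype also differed from each other in these genes. Of the 41 genes, 33 were highest among the MyD88-ko arrays on replicate 2, where 37.1% of all genes were highest. The lowest MyD88-ko array was replicate 3 for 24 genes (36.95% of all genes), replicate 1 for 13 (34.3%) and replicate 2 for 4 (32.8%), so the order of MyD88-ko replicates 1 and 3 changed from gene to gene. In WT, 32 of 41 were lower on replicate 1 than on replicate 2, where 45.9% of all genes were, with a median gap of 0.29, where the median gap over all genes was 0.00. For 23 genes both conditions held, with WT replicate 1 under WT replicate 2 and WT replicate 2 under every MyD88-ko array. The difference between genotypes exceeded both the gap between the WT arrays and the range of the MyD88-ko arrays for 18 of 41 genes. Neither this count nor the 23 was taken over all genes, so no share stands beside them.

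Other genes of division, listed by function, gave the setting of the 41. Of 73 other mitotic genes, 63 had positive differences (median 0.27), none passed (limma), and 26 were higher and 2 lower at an unadjusted p under 0.05, where 6.16% of all genes were higher and 6.39% lower. The lowest p-values were those of the condensin subunits Ncapd2 (0.76), Ncapg (0.51) and Ncaph (0.63) and of Cenph (0.58), all under the background limit. Bub3, a checkpoint protein also present outside mitosis, was the only one above the limit on all arrays (0.18). The 37 DNA replication and G1 genes had a median of 0.44 with 35 positive, and none passed (limma, 20 higher and 1 lower at an unadjusted p under 0.05, against the same 6.16% and 6.39%). Rrm2 (0.91), E2f8 (1.17), Mcm4 (0.75) and Mcm6 (0.91) had the lowest p-values among them.

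The 17 genes of the anaphase-promoting complex and its partners had a median of 0.18 with 12 positive. None passed (limma, 2 higher and 2 lower at an unadjusted p under 0.05, where 6.16% of all genes were higher and 6.39% lower). Fbxo5, the cell-cycle-regulated inhibitor EMI1, had a difference of 0.97, the subunit Anapc5 0.56, Anapc10 -0.50 and Anapc4 -0.44. The 22 genes of cell cycle exit had a median of 0.03 with 12 positive, and none passed (limma, 3 higher and 4 lower at an unadjusted p under 0.05, against 6.16% and 6.39% of all genes). Within that list the antiproliferative genes Btg2 (-1.03) and Btg1 (-0.69) had negative differences and the mitotic activator Mybl2 (0.75) and the pocket protein gene Rbl1 (0.53) positive ones. The CDK inhibitor gene Cdkn1b read 7.75, 7.23 and 7.84 in MyD88-ko and 8.47 and 8.24 in WT, with groups that did not overlap (-0.75, adjusted p = 0.234).

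**Figure D4:**
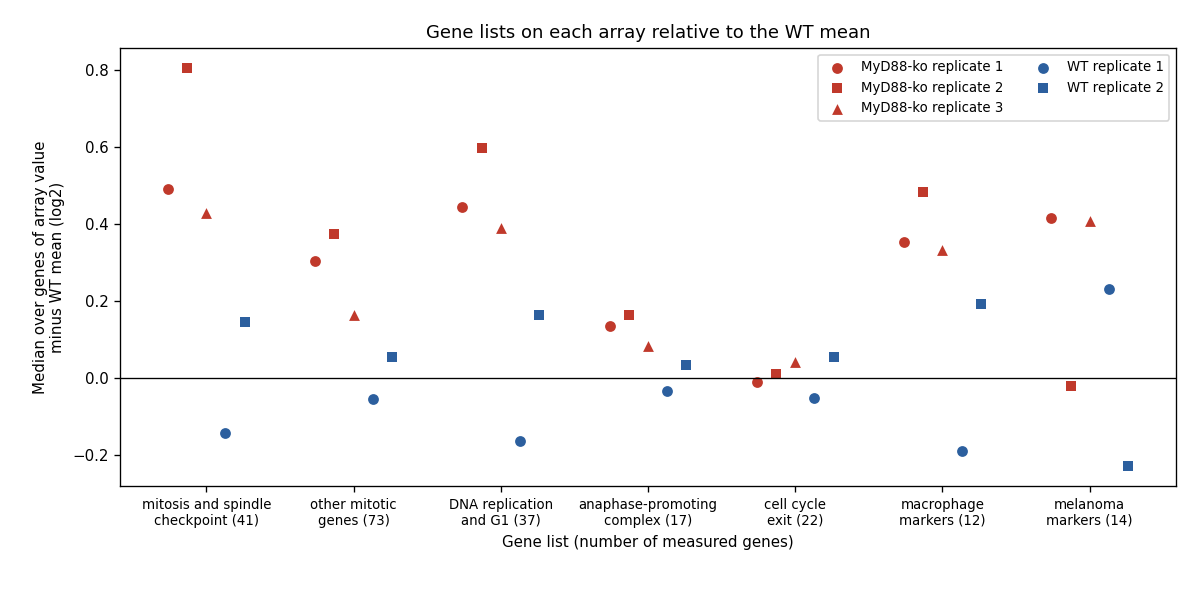
Median over the genes of each list of the array value minus that gene's WT mean (vertical axis, log2), 1 symbol per array, with MyD88-ko in red and WT in blue. For the 41 genes the MyD88-ko arrays sit at 0.49, 0.80 and 0.43 and the WT arrays at -0.14 and 0.14. The medians of the cell cycle exit genes stay between -0.05 and 0.05, while differences in that list run from -1.03 to 0.75.

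Markers of other cells were read beside these values. Melanoma markers were present on all arrays: the 4 highest were Tyrp1 (lowest array 10.34), Dct (9.65), Pmel (9.07) and Slc45a2 (8.37). The 14 melanoma markers had 13 positive differences with a median of 0.29, none passed (limma, 1 higher and 0 lower at an unadjusted p under 0.05, against 6.16% and 6.39% of all genes), and their mean level was 7.18 to 7.57 on MyD88-ko arrays and 6.99 to 7.42 on WT arrays. Within each genotype that mean was lowest on replicate 2, where the mitosis genes were highest. With the melanoma mean as a covariate, which takes up 1 residual degree of freedom of the fit, the median difference of the 41 genes was 0.74. In that fit 6 of the 41 passed (Plk1, Ccna2, Kif2c, Bub1b, Cdk1 and Racgap1, limma adjusted p between 0.031 and 0.049). Calls also rose over all genes, where 332 passed, 150 of them higher, against 37, 1 of them higher, without the covariate. The part of melanoma cells in the mitotic values was not tested.

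The 12 macrophage markers had 10 positive differences with a median of 0.45 and a mean level of 9.79 to 9.83 in MyD88-ko and of 9.28 and 9.71 in WT. Adgre1, which encodes F4/80, was at 9.20 ± 0.15 (SD, n = 3) and 8.82 ± 0.10 (SD, n = 2). The highest macrophage markers were Apoe, Lyz2, Itgam and Csf1r, which ran from 9.94 to 11.80 over the arrays. Neutrophil markers had a median of -1.99 over 14 genes. Of these, 6 were called lower (limma), against 0.185% of all genes. The 14 markers had a mean level of 4.25 to 4.60 in MyD88-ko and of 6.21 and 6.55 in WT. For the 7 classical monocyte markers the median was -1.70, and 1 was called lower (limma), against the same 0.185%. Their mean level was 7.35 to 7.89 in MyD88-ko and 9.01 and 9.26 in WT. The part of these cells in the mitotic values was not tested. Markers of T and NK cells, B cells, erythroid precursors, blood progenitors and endothelium did not reach the limit on any array. The 3 Y-linked genes measured had a mean of 4.59 to 5.51 in MyD88-ko and of 5.89 and 6.03 in WT, and with that mean as a covariate the median difference of the 41 genes was 0.74 and none passed (limma, 21 higher at an unadjusted p under 0.05, as were 775 of all 19505 genes in that fit).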

How the data were processed

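The authors deposited 1 table of log2 values for the 5 arrays, which the submitters' processing notes credit to RMA and to Affymetrix Expression Console 1.1. RMA corrects background, quantile-normalizes arrays and summarizes probes. For the probe sets, the genome build is not given in the sources used. Probe sets with 1 symbol (19572 of 28846 rows) were reduced to 19505 genes by the highest mean. The model was limma 3.58.1 under R 4.3.3 (lmFit, eBayes without a trend, genotype as the only term), with Benjamini-Hochberg adjustment over all genes and no filter on dim probe sets. The fit was tested on simulated data. Intervals are 95% intervals of the fit. Array values carry no read depth, so the number of arrays limits the precision. RMA gave 25.5% of genes equal values on 2 or more arrays, among them Melk and Ndc80.

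The 43 genes and the other lists were chosen with earlier results of these data known, so no list was tested as a set. Array values are printed for the 12 members with the lowest p, those above the 95th percentile of the negative controls on all arrays and the 1 with a negative difference. Up to 4 genes of each other list are named by lowest p (with Bub3 and Cdkn1b added after their values were seen) and, in marker lists, by highest mean. Adgre1 was added likewise. Marker lists of dendritic cells and fibroblasts had medians of -0.15 and -0.23 and no gene that passed. Alternatives were other scalings, level filters, averaged probe sets, robust or trended moderation, weighted arrays, covariates, the replicate number as a block and each array left out.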

Additional observations from a re-analysis of the deposited data

How the results depend on the processing

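The positive median of the 41 mitosis genes held under all 18 alternatives, between 0.42 and 0.81. The number of members with arrays that did not overlap was between 25 (of 34 left by the filter at the 50th percentile) and 38. With 1 array left out this number can stay or rise but not fall, so its range there, 29 to 38, is no check. It was 27 with equal array medians or cyclic loess and 35 with equal negative control medians. The count called over all genes, 37, was 56 with quantile normalization again, 60 with equal array medians, 65 with cyclic loess, 15 with array weights, 332 with the melanoma covariate, 0 with the Y-linked covariate (775 higher at an unadjusted p under 0.05) and 263 with equal negative control medians. It was 0 to 1 with 1 array left out. Members called were 6 with the melanoma covariate and 6 with equal negative control medians, and 0 under each of the other alternatives. With equal negative control medians the list medians were 0.47 for other mitotic genes, 0.37 for the anaphase-promoting complex, 0.23 for cell cycle exit and 0.64 for DNA replication and G1, where all genes moved to 0.21. With the Y-linked covariate other mitotic genes were at 0.49 and DNA replication and G1 genes at 0.67. The filter at the 50th percentile gave 0.43 for 47 other mitotic genes and -0.025 for 20 cell cycle exit genes. With 1 array left out, the medians ranged from 0.42 to 0.71 (mitosis), 0.22 to 0.37 (other mitotic), 0.31 to 0.64 (DNA replication and G1), 0.067 to 0.18 (anaphase-promoting complex) and -0.015 to 0.076 (cell cycle exit).

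Same-numbered arrays correlated in their deviations from the group means at 0.06 and 0.10 across genes. With 2 WT arrays the WT deviations mirror each other, so these values cannot tell whether a number stands for a shared batch. Among the 41 genes, replicate 2 was the highest array for 33 in MyD88-ko and for 32 in WT. With the replicate number as a block, 70 genes and 0 members were called, and the median of the members was 0.63. Hmmr turned positive with the block (0.039), the melanoma covariate (0.034), the Y-linked covariate (0.12), equal negative control medians (0.16), and without MyD88-ko replicate 1, MyD88-ko replicate 3 or WT replicate 1, and it ranged from -0.17 to 0.080 with 1 array left out. The cause was not tested for any of these shifts. Of 321 values of 18 named members, 305 kept their direction and their side of the threshold, 9 passed it and 7 turned, all of Hmmr. No member passed in the main fit, so keeping its side meant staying uncalled, and that part of the count is no check. Fits with a single WT array take its spread from the MyD88-ko arrays. The background limit is strict: 24 of 41 members lay under it on all arrays, which does not show that they were not expressed.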
